A study of Homo sapiens with 18 samples.

Results

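The genes described here are those that make, store, take back and break down catecholamines: TH, DDC, DBH, GCH1, SLC18A1, SLC18A2, SLC6A2 and MAOA. They were chosen by symbol, as every probe that the annotation of the array names for 1 of these 8 genes. That gave 12 probes of 47222 analysed: 3 for GCH1, 2 each for TH and SLC18A1, and 1 each for the other 5 genes. Of the 8 genes 7 passed the filter on dim probes and were tested among 12975 genes. SLC18A2 did not pass.

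The 18 arrays (Illumina HumanHT-12 v4) measured RNA of cultured human neuroblastoma cells, IMR-32 in 9 and SK-N-SH in 9, with 3 arrays per group, described by the study as biological replicates. Cells of each line received withaferin A (WA, 1 µM), withanone (WN, 1 µM) or the solvent DMSO, and the arrays carry a time of 24 h. WA and WN are withanolides, steroidal lactones made by the plant Withania somnifera, with an epoxide and hydroxyl groups at different ring positions. IMR-32 is known to carry MYCN amplification and SK-N-SH is known to lack it. SK-N-SH is also known as a mixed line with neuroblastic and flat, substrate-adherent cells. Each line comes from 1 patient, so a difference between lines is a difference between these cultures.

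Noradrenaline is made from tyrosine in steps. Tyrosine hydroxylase (TH), which needs the cofactor tetrahydrobiopterin, makes L-DOPA, DDC turns it into dopamine, and dopamine beta-hydroxylase (DBH) turns dopamine into noradrenaline inside vesicles. GCH1 starts the synthesis of tetrahydrobiopterin, the vesicular carriers SLC18A1 and SLC18A2 load the vesicles, SLC6A2 takes noradrenaline back into the cell, and MAOA degrades it. Neuroblastoma arises from the sympathetic lineage, and catecholamine products in urine are a marker of the disease.

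The sequences before the gene starts are shown for DBH, DDC and MAOA, the members on which the results below mainly turn and for which RefSeq windows were at hand (GRCh38.p14, 250 bases, read 5′ to 3′ in the direction of transcription). DDC has 2 starts. Windows of TH, GCH1, SLC18A1 and SLC6A2 are not shown. Capitals mark 3 short motifs on either strand: TGACG, the core of a cAMP response element; GGGCGG, the GC box; and ATTA, the core bound by homeodomain proteins, a class to which PHOX2A belongs.
DBH, chr9:133636113-133636362, plus strand: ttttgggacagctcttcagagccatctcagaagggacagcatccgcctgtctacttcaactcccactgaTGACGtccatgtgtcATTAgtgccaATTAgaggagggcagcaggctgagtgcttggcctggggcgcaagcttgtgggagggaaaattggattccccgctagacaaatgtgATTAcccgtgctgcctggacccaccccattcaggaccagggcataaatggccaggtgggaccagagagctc
DDC, chr7:50565406-50565655, minus strand: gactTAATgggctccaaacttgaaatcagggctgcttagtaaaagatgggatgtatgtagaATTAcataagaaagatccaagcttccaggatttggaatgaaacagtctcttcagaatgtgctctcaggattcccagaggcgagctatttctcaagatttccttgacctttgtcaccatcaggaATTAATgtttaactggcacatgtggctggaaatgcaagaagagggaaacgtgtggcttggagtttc
DDC, chr7:50561072-50561321, minus strand: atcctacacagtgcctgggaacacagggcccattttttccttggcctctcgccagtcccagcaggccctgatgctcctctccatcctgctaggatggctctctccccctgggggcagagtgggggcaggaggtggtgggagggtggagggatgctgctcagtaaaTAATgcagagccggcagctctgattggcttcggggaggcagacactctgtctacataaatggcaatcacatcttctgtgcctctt
MAOA, chrX:43656049-43656298, plus strand: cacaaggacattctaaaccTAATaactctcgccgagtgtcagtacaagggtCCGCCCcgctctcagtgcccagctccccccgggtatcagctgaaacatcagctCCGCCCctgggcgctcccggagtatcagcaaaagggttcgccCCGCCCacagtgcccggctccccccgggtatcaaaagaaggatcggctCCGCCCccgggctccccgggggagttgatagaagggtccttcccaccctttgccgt
The DBH window held 1 TGACG, which began 181 bases before the start, and 3 ATTA. The DDC windows held 4 and 1 ATTA, with overlapping letters where 2 of the 4 meet, and no match to the other motifs. The MAOA window held 4 GC boxes and 1 ATTA. Of 35116 promoter windows of this length 21.2% held TGACG, 42.6% GGGCGG and 47.4% ATTA, so these matches are frequent and are given as a description of the letters.

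Values are normalized log2 intensities, and differences are those of group means on this scale ± SE, and adjusted p comes from limma over all genes tested, with a threshold of 0.05. A gene is represented by its brightest probe, and a level is compared only between arrays, not between genes. Detected means a detection p under 0.01 on that array. The 6 WN arrays were dimmer, with highest signals of 19100.5 to 21479.9 against 29825.6 to 37328.5 on the 12 WA and DMSO arrays, so that brightness and WN cannot be told apart. Of 9 tested transcription factors of the noradrenergic lineage, PHOX2A, HAND1, HAND2, GATA2, GATA3 and ISL1 were detected on all 3 DMSO arrays of both lines. TFAP2B was not detected in IMR-32 nor TFAP2A in SK-N-SH. The Schwann cell markers SOX10, S100B, ERBB3, FOXD3, GFAP and CDH19 and the immune markers PTPRC, CD3E, LYZ, MS4A1 and NKG7 did not pass the filter. NGFR, MBP and CRYAB of the Schwann cell list and CD14, CD68, CD8A and FCGR3A of the immune list passed it.

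With DMSO, 5 of the 7 tested members were lower in IMR-32 than in SK-N-SH and none was higher, where 51.5% of all genes differed between the lines (27% lower in IMR-32). DDC stood farthest apart. It measured 7.09, 6.97 and 7.70 in IMR-32 and 11.94, 11.81 and 10.59 in SK-N-SH, a difference of −4.19 ± 0.53 or 18.3-fold (adjusted p = 5.33e-06). The other 4 were SLC18A1 (−2.35 ± 0.51), GCH1 (−1.75 ± 0.38), SLC6A2 (−1.34 ± 0.46) and MAOA (−0.83 ± 0.20), with the arrays of IMR-32 fully below those of SK-N-SH for each, as for 31.6% of all genes. The SLC6A2 difference missed the threshold without IMR-32 DMSO array 3 (−0.998) and without SK-N-SH DMSO array 1 (−1.05). DBH averaged 11.99 ± 0.36 in IMR-32, beside 12.46 ± 0.88 in SK-N-SH (SD, n = 3 each), and its difference of −0.47 (95% interval −1.76 to 0.82) did not pass.

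TH was near the limit of detection. It was detected on 1 of 3 DMSO arrays in IMR-32 and on none of the 9 arrays of SK-N-SH, where its level is only bounded. With DMSO its difference between the lines did not pass (adjusted p = 0.0594). SLC18A2, the vesicular carrier typical of neurons, was not detected on any of the 18 arrays, with levels between 4.29 and 4.70. SLC18A1, the carrier typical of endocrine cells, was detected on every array of SK-N-SH and on 4 of 9 in IMR-32.

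**Figure D1:**
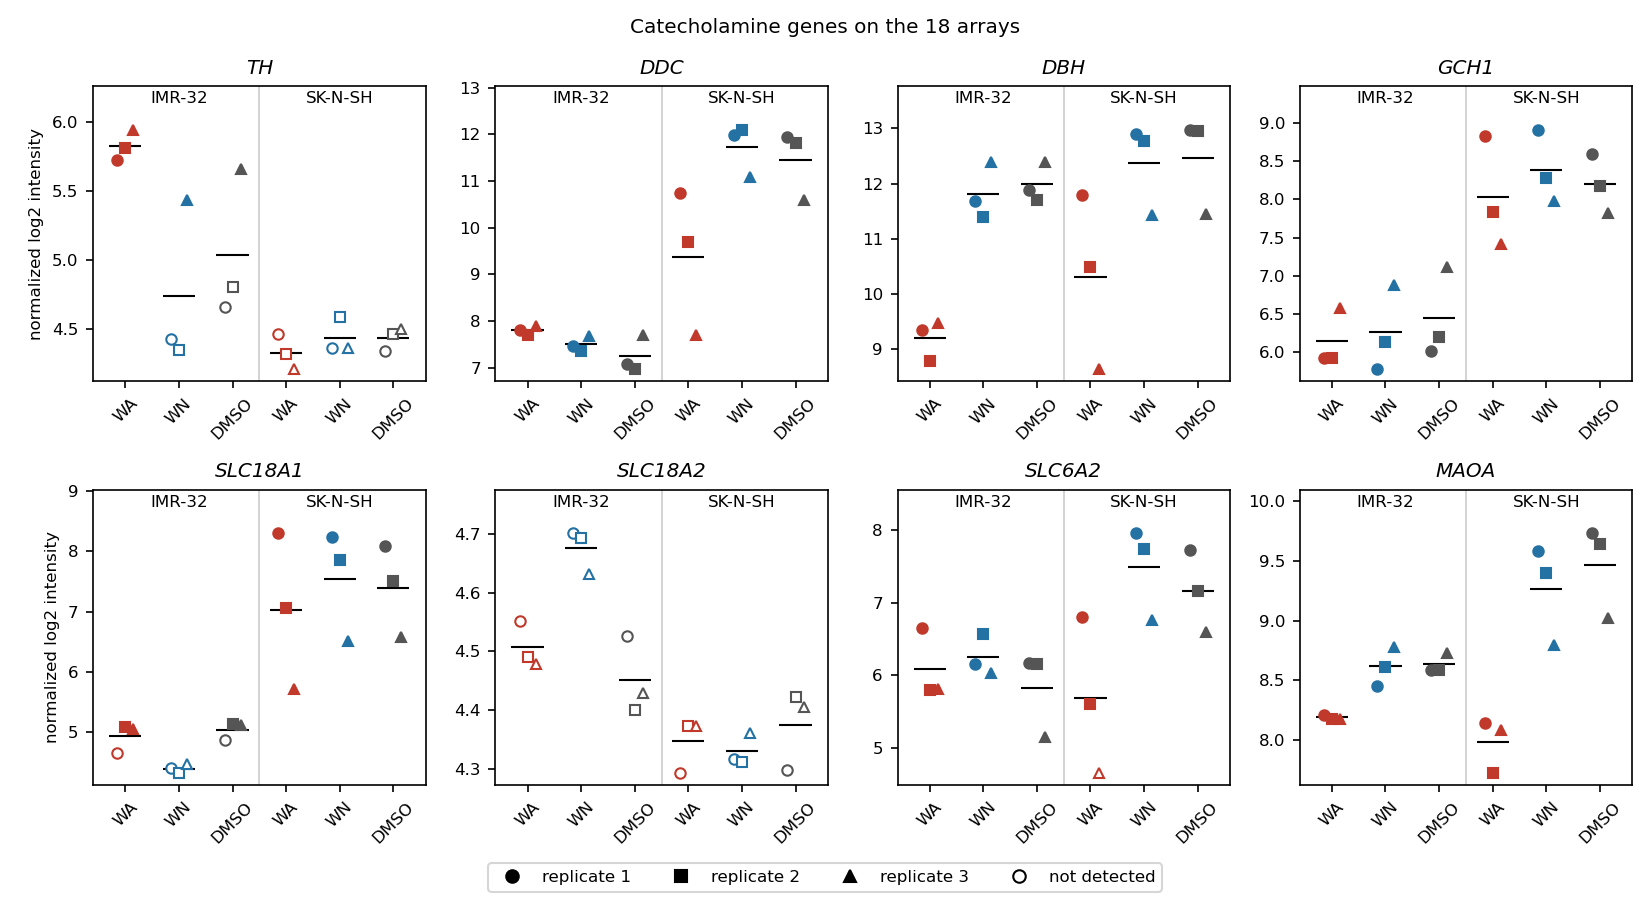
Normalized log2 intensity (vertical axis, its range differs between panels) of the 8 genes on the 18 arrays, by line and by treatment, with the mean of each group as a bar and the replicate numbers as shapes. Open symbols are arrays without detection. DBH is lowest with WA in both lines, DDC and MAOA are lowest with WA in SK-N-SH, and SLC18A2 is open throughout.

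WA lowered DBH in both lines, and in SK-N-SH also DDC, SLC6A2 and MAOA. In IMR-32 TH, near its detection limit, was just inside the threshold and higher. Of the 7 tested members 1 was higher and 1 lower with WA in IMR-32, where 14.5% of all genes changed, 8.02% higher and 6.5% lower. The higher member, TH, passed the filter through 5 arrays, 3 of them with WA. Without these WA arrays TH would have fallen short of the filter, so its place in this count is owed to them. Without the filter it was not called (adjusted p = 0.0712). In SK-N-SH none was higher and 4 were lower, where 31.9% of all genes changed and 15.5% were lower. The median difference of the members was −0.11 in IMR-32 (over all genes 0.02), and in SK-N-SH it was −1.47 (over all genes 0.02).

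DBH, which makes noradrenaline from dopamine, measured 9.33, 8.78 and 9.46 on the WA arrays of IMR-32 and 11.88, 11.69 and 12.40 on the DMSO arrays. The groups do not overlap, as for 40.4% of all genes. The difference was −2.80 ± 0.61, 6.96-fold lower (adjusted p = 0.00556), and the pairs of same-numbered arrays gave −2.55, −2.92 and −2.93. In SK-N-SH the WA arrays measured 11.80, 10.49 and 8.63 and the DMSO arrays 12.98, 12.96 and 11.45. Here the groups overlap, because WA array 1 stood above DMSO array 3, although every same-numbered pair was lower with WA (−1.18, −2.47 and −2.82). The difference was −2.16 ± 0.61, 4.46-fold lower (adjusted p = 0.0126). It missed the threshold without DMSO array 1 (−1.90) or 2 (−1.91) or WA array 3 (−1.32), adjusted p was 0.0667 with arrays of 1 line, and it was 3.35e-05 with the replicate numbers as a block.

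DDC, the decarboxylase of the step before DBH, measured 7.81, 7.71 and 7.90 with WA in IMR-32 and 7.09, 6.97 and 7.70 with DMSO. All 3 WA arrays lay above all 3 DMSO arrays, and for 40.4% of all genes these groups did not overlap. The difference of 0.56 ± 0.53 did not pass in the fit over both lines (adjusted p = 0.567). It did not pass with the block (adjusted p = 0.189) or with arrays of 1 line (0.0538), and it passed with both (0.0158). In SK-N-SH it measured 10.75, 9.68 and 7.71 with WA and 11.94, 11.81 and 10.59 with DMSO. WA array 1 lay just above DMSO array 3, and the 3 same-numbered pairs gave −1.19, −2.12 and −2.87. The fall of −2.06 ± 0.53, 4.18-fold (adjusted p = 0.00754), kept its call with any 1 array left out (−2.75 to −1.23) and lost it with arrays of 1 line (adjusted p = 0.0564). On the third WA array of SK-N-SH DDC stood at about its level in IMR-32.

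TH, the first and rate-limiting enzyme, measured 5.73, 5.81 and 5.95 with WA in IMR-32 and 4.65, 4.80 and 5.66 with DMSO. All 3 WA arrays, 1 of 3 DMSO arrays and 1 of 3 WN arrays were detected, and the gene passed the filter through these 5 arrays, 3 of them with WA. The difference of 0.79 ± 0.26 (adjusted p = 0.0496) is just inside the threshold, and no fold is given because 2 of the DMSO arrays were not detected. Adjusted p was 0.0712 without the filter and 0.0977 with arrays of 1 line. The call was also lost without DMSO array 1 (0.60) or 2 (0.67) or WA array 1 (0.84), 2 (0.80) or 3 (0.73), and on the authors' series matrix it was 0.25 (adjusted p = 0.113). Among probes the representing one had an adjusted p of 0.0529, and the other TH probe was higher with WA by 1.06 ± 0.21 (adjusted p = 0.0028 over probes), with 5.93, 5.48 and 6.02 against 4.54, 4.63 and 5.09 with DMSO. In SK-N-SH TH was not detected with WA or DMSO.

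GCH1, which starts cofactor synthesis, did not pass in either line. It measured 5.92, 5.93 and 6.58 with WA and 6.02, 6.20 and 7.12 with DMSO in IMR-32 (−0.30, 95% interval −1.11 to 0.51), and 8.83, 7.83 and 7.42 against 8.59, 8.18 and 7.82 in SK-N-SH (−0.17, interval −0.98 to 0.64). Its 2 dimmer probes gave differences with WA between −0.35 and 0.10 in the lines, none past the threshold.

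The carriers differed. SLC6A2, the noradrenaline transporter of the cell membrane, measured 6.81, 5.61 and 4.66 with WA in SK-N-SH and 7.73, 7.16 and 6.60 with DMSO, the third WA array without detection. Its fall of −1.47 ± 0.46 was 2.77-fold (adjusted p = 0.0229), with every pair lower (−0.92, −1.55 and −1.94) but WA array 1 above DMSO array 3. The call was lost without DMSO array 1 (−1.19) or 2 (−1.47) or WA array 2 (−1.43) or 3 (−0.95) and with arrays of 1 line (adjusted p = 0.0718), and adjusted p was 0.000427 with the replicate block. In IMR-32 SLC6A2 measured 6.66, 5.79 and 5.82 with WA and 6.18, 6.15 and 5.15 with DMSO, overlapping groups with a difference of 0.26 (interval −0.72 to 1.24). SLC18A1 gave −0.37 (interval −1.45 to 0.72) in SK-N-SH, with 8.30, 7.06 and 5.72 against 8.09, 7.51 and 6.57 with DMSO. In IMR-32 it was detected on 2 WA and 2 DMSO arrays, and its difference of −0.11 changed sign on the series matrix (0.08).

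MAOA, the mitochondrial enzyme that breaks amines down, measured 8.14, 7.73 and 8.08 with WA in SK-N-SH and 9.73, 9.64 and 9.03 with DMSO. It was the 1 member there whose WA arrays lay fully below the DMSO arrays, as did 16.4% of all genes. The fall of −1.48 ± 0.20, 2.79-fold (adjusted p = 6.82e-05), held with any 1 array left out (−1.70 to −1.35). In IMR-32 it measured 8.21, 8.18 and 8.18 with WA and 8.59, 8.59 and 8.73 with DMSO. Those arrays do not overlap either, as for 40.4% of all genes, but the difference of −0.45 ± 0.20 did not pass in the fit over both lines (adjusted p = 0.16). It passed with arrays of 1 line (adjusted p = 0.02), with these and the block (0.018) and with array weights (0.0217).

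**Figure D2:**
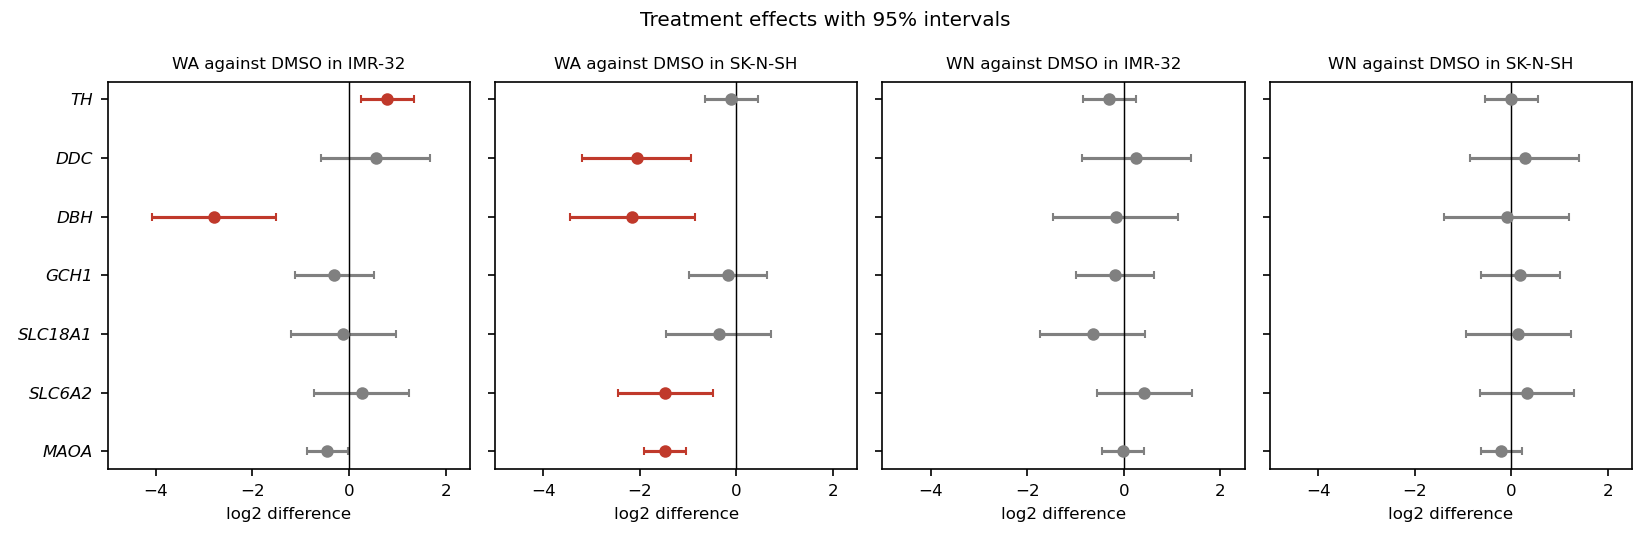
Log2 differences against DMSO (horizontal axis) with 95% intervals for the 7 tested genes, with WA on the left and WN on the right, each in IMR-32 and then SK-N-SH. Red marks an adjusted p under 0.05. DBH lies left of 0 with WA in both lines, DDC, SLC6A2 and MAOA do so in SK-N-SH, and no WN difference is red.

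Whether WA acted unequally in the lines was tested directly. The difference passed for DDC (2.62 ± 0.76, adjusted p = 0.048), with an effect of 0.56 in IMR-32, beside −2.06 in SK-N-SH, and for MAOA (1.04 ± 0.29, adjusted p = 0.0392), with −0.45 in IMR-32, beside −1.48 in SK-N-SH. These were 2 of 7 members, where 6.84% of all genes passed. Both calls are close to the threshold. Each was lost when any of 10 of the 12 arrays was left out in turn, with the difference between 1.78 and 3.30 for DDC and between 0.90 and 1.26 for MAOA. With the replicate numbers as a block, under which 13.7% of all genes passed, 4 members did: DDC (adjusted p = 0.00104), MAOA (0.0113), SLC6A2 (1.73, 0.00573) and TH (0.90, 0.025). TH was not detected in SK-N-SH, so its difference there has no measured level behind it. TH also passed the filter only through the WA arrays of IMR-32, so its call is not taken as support. For DBH, lowered in both lines, the effects differed by −0.64 (interval −2.46 to 1.18).

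In SK-N-SH DBH, DDC, SLC18A1, SLC6A2 and GCH1 also varied with the replicate number, with array 3 the lowest in each treatment. MAOA and TH had no array lowest in all 3 treatments. Array 3 was the lowest of its group for DBH in each treatment: its deviation from the group mean was −1.68 with WA, −0.94 with WN and −1.01 with DMSO. DDC (−1.67, −0.64 and −0.86), SLC18A1 (−1.31, −1.02 and −0.82) and SLC6A2 (−1.03, −0.72 and −0.56) had the same array lowest. With WA array 1 was the highest for all 4 of these genes. Over the 9 arrays of SK-N-SH DDC correlated with DBH at r = 0.99 and with SLC6A2 at r = 0.98, which is a description over arrays that share treatments and replicate numbers. In IMR-32 DDC and DBH correlated at r = −0.51 (n = 9), and there array 3 was the highest of its group for DBH.

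**Figure D3:**
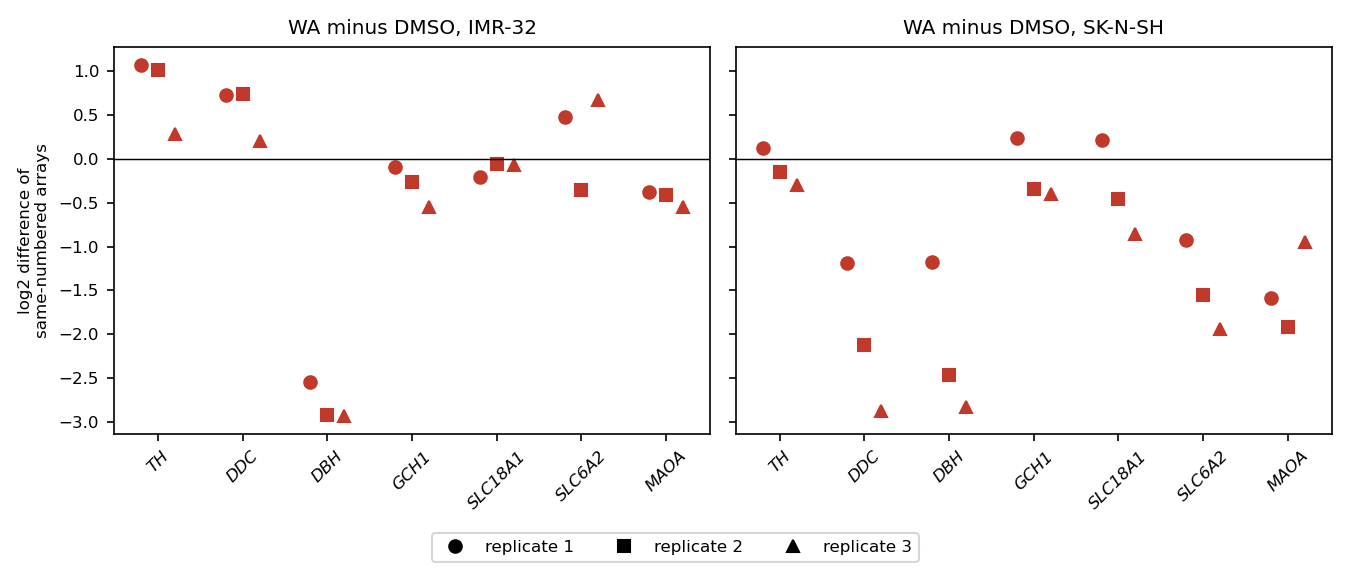
Log2 difference of each same-numbered pair of arrays, WA minus DMSO (vertical axis), for the 7 tested genes in IMR-32 (left) and SK-N-SH (right), with the replicate number as the shape. All 3 pairs lie below 0 for DBH and MAOA in both lines, for GCH1 and SLC18A1 in IMR-32, and for DDC and SLC6A2 in SK-N-SH. All 3 lie above 0 for TH and DDC in IMR-32. In SK-N-SH the DBH pairs spread between −2.82 and −1.18.

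WN changed none of the 7 tested members against DMSO in either line, where 4.62% of all genes changed in IMR-32 (SK-N-SH 1.87%). In limma none of the members had an unadjusted p under 0.05 (lowest 0.226), where 2642 genes did so in IMR-32 (SK-N-SH 2204). In limma a line difference of the WN effect passed for none of 12975 genes (0%, with 478 at an unadjusted p under 0.05). DBH measured 11.68, 11.39 and 12.38 with WN and 11.88, 11.69 and 12.40 with DMSO in IMR-32, a difference of −0.17 (interval −1.46 to 1.12), and in SK-N-SH it measured 12.89, 12.78 and 11.43 with WN against 12.98, 12.96 and 11.45 (−0.10, interval −1.39 to 1.19). The array values of each line nearly coincide. DDC gave 0.25 (interval −0.88 to 1.38) in IMR-32 and 0.28 (−0.85 to 1.41) in SK-N-SH, SLC6A2 0.42 (−0.55 to 1.40) and 0.32 (−0.66 to 1.30), and MAOA −0.02 (−0.45 to 0.41) and −0.20 (−0.63 to 0.22). These intervals do not exclude changes of about 2-fold for DBH, DDC and SLC6A2.

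With the replicate block, under which 7.61% of all genes passed, 1 member did with WN in IMR-32, SLC18A1 (−0.65 ± 0.18, adjusted p = 0.0451). Its 3 WN arrays, at 4.40, 4.33 and 4.47, were not detected and lay below the DMSO arrays (as for 14.5% of all genes), of which 2 of 3, at 4.87, 5.15 and 5.13, were detected. The detection floors of these WN arrays (5.36, 5.15 and 5.05) lie at or above the DMSO mean of 5.05, so no fold is given. The second SLC18A1 probe gave 0.11, and the difference turned to 0.06 on the series matrix.

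The related compounds were compared with each other at the same dose and time, 1 pair in each line. In IMR-32 TH was higher with WA than with WN (1.09 ± 0.26, adjusted p = 0.00592), with detection on 3 WA arrays and 1 WN array. TH passed the filter only through the WA arrays, where it is high, so its call is not taken as support. DBH was lower (−2.63 ± 0.61, 6.17-fold, adjusted p = 0.0054). These were 2 of 7 members, where 23.8% of all genes differed. In SK-N-SH 4 members were lower with WA than with WN, where 38.4% of all genes differed: DDC (−2.34 ± 0.53, adjusted p = 0.00262), DBH (−2.06 ± 0.61, 0.0136), SLC6A2 (−1.79 ± 0.46, 0.00601) and MAOA (−1.28 ± 0.20, 0.000156). The DBH difference in SK-N-SH missed the threshold without WA array 3 (−1.22) or WN array 1 (−1.80) or 2 (−1.86). GCH1 did not pass in IMR-32 (−0.12, interval −0.93 to 0.69) or SK-N-SH (−0.36, −1.17 to 0.45), nor did SLC18A1 in IMR-32 (0.53, −0.55 to 1.62) or SK-N-SH (−0.51, −1.60 to 0.57). This comparison shares the WA arrays with that against DMSO, and its values are not a repeat of it.

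Genes that supply cofactors to these enzymes were counted next. Of 10 tested genes of tetrahydrobiopterin and cofactor supply 1 was higher and 2 were lower with WA in IMR-32 (8.02% and 6.5% of all genes), and 1 was higher and 5 were lower in SK-N-SH (31.9% of all genes changed). With the block QDPR, a recycler of tetrahydrobiopterin, was also lower in IMR-32 (−0.40, adjusted p = 0.0518 without the block and 0.0424 with it). DNAJC12, a cochaperone of the aromatic amino acid hydroxylases, fell by 1.72 in SK-N-SH (adjusted p = 3.18e-05), with −0.44 in IMR-32, which did not pass. The ascorbate carrier SLC23A2 (−1.19 ± 0.26) and the copper pump ATP7A (−0.95 ± 0.15) also fell in SK-N-SH, and ascorbate and copper both serve DBH. GCHFR, a regulator of GCH1, fell in both lines (−0.74 ± 0.16 in IMR-32, beside −0.80 ± 0.16 in SK-N-SH). The median of the list was −0.30 in IMR-32, beside −0.46 in SK-N-SH.

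Of 6 tested genes of breakdown and other carriers 1 was higher and 1 lower in IMR-32 (14.5% of all genes changed), and 1 was higher and 2 were lower in SK-N-SH (31.9%). The monoamine carrier SLC29A4 fell in both lines (−0.82 ± 0.17 in IMR-32, beside −1.46 ± 0.17 in SK-N-SH). ALDH2, which oxidises aldehydes, rose by 0.65 ± 0.19 in IMR-32, a call lost when any array but 1 was left out (0.60 to 0.70), and by 0.61 ± 0.19 in SK-N-SH. MAOB, the sister enzyme of MAOA, fell by 0.65 in SK-N-SH (adjusted p = 0.046), a call lost without DMSO array 1 or 2 or WA array 2 or 3 (−0.61 to −0.38). Of 5 tested catecholamine receptors none passed in either line. With the block, under which 19.7% of all genes passed in IMR-32, DRD2 (−0.50, adjusted p = 0.0288) and ADRA2A (−0.39, 0.0478) passed there. In SK-N-SH, where 38.2% of all genes passed with it, DRD2 did so (−0.51, 0.0131). DRD2 was detected there on 2 of 3 WA and 2 of 3 DMSO arrays.

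Of 9 tested transcription factors of the noradrenergic lineage, 3 were lower in IMR-32 (INSM1, ISL1 and TFAP2A), where 6.5% of all genes were lower, and 4 in SK-N-SH (PHOX2A, HAND2, GATA2 and TFAP2B), where 15.5% were lower. None was higher. With the block, under which 38.2% of all genes changed there, 6 were lower in SK-N-SH, with ISL1 (−0.40, adjusted p = 0.0143) and GATA3 (−0.46, 0.0252) added. In IMR-32 INSM1 fell by 2.19 (adjusted p = 9.65e-05). ISL1 fell by 1.71 (adjusted p = 3.07e-05). In SK-N-SH GATA2 (−1.61 ± 0.43) and TFAP2B (−1.68 ± 0.48) fell, and the TFAP2B call was lost without DMSO array 1 (−1.38) or 2 (−1.24) or WA array 2 (−1.55). TFAP2B was not detected in IMR-32 nor TFAP2A in SK-N-SH, so those effects cannot be set against each other. The list median was −0.05 in IMR-32, beside −0.46 in SK-N-SH.

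Of 13 secretory granule genes 2 were higher in IMR-32 (8.02% of all genes), VGF (2.88 ± 0.27) and SCG2 (2.15 ± 0.25), both peptide precursors of dense-core granules. In SK-N-SH, where 31.9% of all genes changed, 2 were higher and 3 lower: CHGA, a granin of these granules (−2.88 ± 0.50), the fusion protein SNAP25 (−1.42 ± 0.31) and NPY fell, whereas VGF rose by 1.21 ± 0.27. With the block, under which 38.2% of all genes changed there, 3 were higher and 5 lower. Of 7 cholinergic genes 1 was lower in IMR-32 (6.5% of all genes), CHAT, the enzyme of acetylcholine synthesis (−1.004 ± 0.25, lost without DMSO array 2 or 3 or WA array 1 or 2, −0.93 to −0.75). In SK-N-SH the ganglionic receptor subunits CHRNA3 (−2.28 ± 0.33) and CHRNB4 (−1.32 ± 0.30) fell and ACHE, which degrades acetylcholine, rose (1.17 ± 0.27, detected on 3 WA and 1 DMSO arrays).

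**Figure D4:**
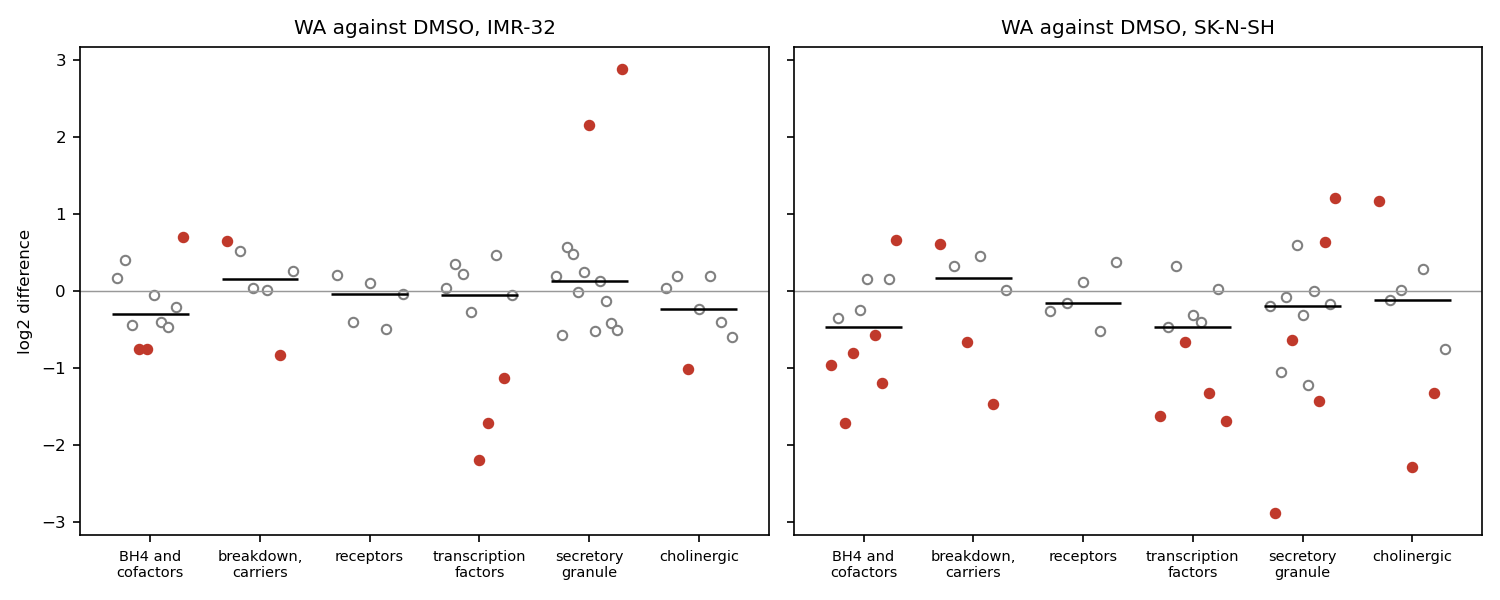
Log2 difference of WA against DMSO (vertical axis) for the tested genes of 6 lists, in IMR-32 (left) and SK-N-SH (right). Filled points have an adjusted p under 0.05, open points do not, and bars are list medians. The filled points of the transcription factors all lie below 0, and those of the granule genes lie above 0 in IMR-32 and on both sides in SK-N-SH.

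Markers of other cell types were counted beside the falls of DBH, DDC, SLC6A2 and MAOA in SK-N-SH, where 31.9% of all genes changed. The markers below the filter, among them PTPRC, CD3E and LYZ (immune) and SOX10, S100B and ERBB3 (Schwann cell), were not tested. Of 4 tested immune markers 2 were higher with WA, CD68 (1.12 ± 0.20) and CD14 (0.81 ± 0.23), and the summed intensity of the list lay between 658 and 852 with WA and between 382 and 421 with DMSO. With the block, under which 38.2% of all genes passed, CD8A was lower (−0.70, adjusted p = 0.0674 without the block and 0.0177 with it). Of 3 Schwann cell markers 2 were higher, CRYAB (1.08 ± 0.35) and MBP (0.73 ± 0.20), and the sum lay between 259.8 and 363 with WA and between 134 and 237 with DMSO. CD14 missed the threshold without WA array 2 (0.72), CRYAB without DMSO array 1 or 2 or WA array 2 (0.96, 0.93 and 0.81), and MBP without DMSO array 1 (0.54) or WA array 3 (0.61). Of 12 mesenchymal markers 1 was higher, WWTR1 (0.72 ± 0.22, lost without DMSO array 2 or 3 or WA array 2, 0.40 to 0.66), and 2 were lower, TWIST1 (−0.95 ± 0.22) and COL1A2, which was not detected with WA, so that it has only a bound there. The mesenchymal sum lay between 33617 and 41587 with WA and between 35329 and 47734 with DMSO. Their part in the result was not tested, and fewer cells of a type and less RNA per cell cannot be told apart in these samples.

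In IMR-32, where 14.5% of all genes changed, none of the 4 immune markers passed (summed intensity 387 to 501 with WA and 379.9 to 467 with DMSO). Of the Schwann cell markers NGFR fell (−1.19 ± 0.22, detected on 1 WA and 3 DMSO arrays), with sums of 69.0 to 79.8 with WA and 101.1 to 127 with DMSO. Of the mesenchymal markers SNAI2 rose (2.02 ± 0.36) and TWIST1 fell (−0.72 ± 0.22), with sums of 13458 to 20002 with WA and 11583 to 17506 with DMSO. With the block 3 mesenchymal markers were higher and 1 lower in IMR-32, where 19.7% of all genes passed. In SK-N-SH, where 38.2% of all genes passed with the block, 2 were higher and 5 lower. The part of these markers in the IMR-32 result was not tested.

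With WN few genes of these lists passed, as few of all genes did (4.62% in IMR-32, 1.87% in SK-N-SH). In IMR-32 2 of 10 cofactor genes were lower, GCHFR (−0.63 ± 0.16) and PCBD1, a recycler of tetrahydrobiopterin (−0.60 ± 0.16). Of 13 granule genes 1 was higher, CPE, which trims granule peptides (0.71 ± 0.17). Of 4 immune markers 1 was lower, CD68 (−0.71 ± 0.20), beside no call among the members. In SK-N-SH none of the list genes passed in limma. With the block SNAP25 (0.73, adjusted p = 0.0168) and SNAI2 (0.86, 0.0121) were also higher in IMR-32, where 7.61% of all genes passed. SNAP25 (0.62, 0.0455), CHRNA5 (1.07, 0.0455) and FCGR3A (0.89, 0.0312) were higher with it in SK-N-SH, where 3.89% of all genes passed.

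The order of the 6 group means differed between members. GCH1 and SLC18A1 were highest in SK-N-SH, in the order WN, DMSO, WA, with all SK-N-SH arrays above all IMR-32 arrays. DBH ran from SK-N-SH with DMSO (12.46) through WN (12.37), IMR-32 with DMSO (11.99) and WN (11.82), and SK-N-SH with WA (10.31) to IMR-32 with WA (9.19), and no neighbours in this order were free of overlap. MAOA ran from SK-N-SH with DMSO (9.47) and WN (9.26) through IMR-32 with DMSO (8.64), WN (8.62) and WA (8.19) to SK-N-SH with WA (7.98).

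Across the 18 arrays, after each line's mean was subtracted, the genes whose values followed the members most closely were named as a description. For DBH they were CXCR4 (r = 0.96), LMO1 (0.95) and JPH3 (0.94). For DDC they were PRC1, CTSV and CCNB2 (r = 0.96 each), of which PRC1 and CCNB2 act in cell division. MAOA was most like PUS7 (0.97), SLC35D3 and KCNJ8 (0.96 each), and SLC6A2 most like NPTX2 (0.94), PHF2 and TCEAL2 (0.93 each). SLC18A1 was most like LRFN2 (0.91), SLC8A2 (0.89) and HPCAL4 (0.88), GCH1 like TMEM121B (0.85), BSN (0.83) and KIF1A (0.82), and TH like SCARNA20 (0.89), MAP7D1 (0.84) and SNORD43 (0.83). The arrays share treatments and replicate numbers, and among 12975 genes the highest of so many correlations is high by selection.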

How the data were processed

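Per the labels, RNA was hybridised to Illumina beadchips. The deposited table holds scanner signal intensities with detection p-values for 47224 probes, as the authors exported them. The authors' series matrix is on a log2 scale after quantile normalization, for which the submitters' processing notes name limma. Its column medians are 6.87, it correlates at 0.995 or more with each array's own signals, and its scale and centring before deposit are unknown. Signals and deposited detection p-values disagreed on the 6 arrays with WN (66.5% to 68.0% of p-values within 0.02 of a running median). On these 6 arrays detection p was therefore replaced by a running median of the deposited p-values, ordered by signal and never rising with it. The deposited p-values thus remain its source, and the replaced values also entered the background correction. This choice was made after seeing the data.

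In limma 3.58.1 (R 4.3.3), neqc (normexp, offset 16, quantile) was run on 47222 probes, after 2 with missing values were dropped. Probes detected (p under 0.01) on 3 or more arrays were kept (23320), and the brightest stood for its gene. Of the probes 30107 carry 1 symbol, 8 several and 17107 none. A mean per group was fitted with lmFit and eBayes over 18 arrays, with Benjamini-Hochberg adjustment at 0.05, and tested on simulated data. Same-numbered arrays deviated together for WA with DMSO and WN with DMSO (every r over 0.1). Arrays of unlike number reached at most r = 0.018 for WA with DMSO. For WN with DMSO they reached 0.318 (SK-N-SH) and 0.102 (IMR-32), so for WN the cutoff of 0.1 alone does not separate pairs. Each same-numbered r was above the highest r of unlike numbers for its line and treatment. The blocked value is therefore given where it changes the call of a member, or the count of a list against DMSO. The array number limits the precision. Named are the members, the 3 genes most like each, and from each list up to 4 genes past the threshold with the largest WA change (the 2 largest if none passed). Other list genes were named after their values were seen. The members and lists were chosen with earlier results of these data known. Figures used matplotlib 3.10.9. The promoter windows are RefSeq's.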

Additional observations from a re-analysis of the deposited data

Results flagged for a closer look

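The effect of WA differed between the lines, by a test of the difference itself, for the following genes, each given as the effect in IMR-32 minus that in SK-N-SH on the log2 scale with limma's adjusted p. Among the members these were DDC (2.62 ± 0.76, adjusted p = 0.048) and MAOA (1.04 ± 0.29, 0.0392). Among the cofactor genes they were DNAJC12 (1.27 ± 0.30, 0.0187) and ATP7A (1.12 ± 0.22, 0.00655), each with its fall in SK-N-SH. The transcription factors INSM1 (−1.88 ± 0.41, 0.0121) and ISL1 (−1.32 ± 0.28, 0.0102) fell more in IMR-32, and PHOX2A (1.79, 0.0126) had its fall in SK-N-SH. Of the 9 tested factors 1 difference was thus positive and 2 were negative, and with the replicate block 4 and 3. Over all genes 6.84% of these differences passed without the block and 13.7% with it. The granule genes VGF (1.67 ± 0.38, 0.0155) and SCG2 (2.46 ± 0.35, 0.000762) rose more in IMR-32, with SCG2 at 2.15 there and −0.30 in SK-N-SH, and SYT1 (−1.06, 0.0148) rose in SK-N-SH. Of the 13 tested granule genes 2 differences were positive and 1 negative, and with the block 5 and 1. The receptor subunit CHRNA3 (2.05 ± 0.46, 0.0148) fell in SK-N-SH. Of 12 mesenchymal markers 2 differences were positive and none negative, with SNAI2 (2.22 ± 0.50, 0.0154) as the 1 named here. With the block 2 were positive and 1 negative. Of 3 Schwann cell markers 1 was negative, NGFR (−1.13 ± 0.32, 0.0417), and 2 with the block. Of 4 immune markers 1 was negative, CD68 (−1.09 ± 0.28, 0.0265), and 1 with the block.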

How the results depend on the processing

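Of 157 recomputed counts 123 stayed within 1.5 times the reported one and 34 did not, and of 1445 recomputed values of single genes 1281 kept direction and side of the threshold, 93 lost a call, 33 gained one and 38 changed sign. The causes were not tested. With WA in IMR-32, 2 members passed, against 1 on the series matrix, 1 without normexp, 1 without the filter and 4 with the replicate block on arrays of 1 line, and 1 to 2 with an array left out. Over all genes 1883 passed, against 2030 on the series matrix, 2033 without normexp, 1845 without the filter and 3236 with that block. With WA in SK-N-SH 4 members passed, against 1 with arrays of 1 line, and 2 to 4 with an array left out. Over all genes 4136 passed there, against 2702 with arrays of 1 line. With WN in IMR-32 no member passed, against 1 with arrays of 1 line, 1 with the replicate block and 1 with both. Over all genes 599 passed, against 1117, 987 and 1586 in these settings. Between WA and WN in IMR-32 2 members passed, against 4 with arrays of 1 line, with or without the block. There 3083 of all genes passed, against 4124 with arrays of 1 line and 4657 with the block added. For the line difference of the WA effect 2 members passed, against 1 on the series matrix, 1 without normexp, 1 with the deposited detection p-values, 0 without the filter, 4 with the replicate block, 1 without the 6 WN arrays, and 0 to 3 with an array left out. Of all genes 887 passed, against 1059 on the series matrix, 1056 without normexp and 979 with the deposited detection p-values. Without the filter 767 did so, with the replicate block 1774, and without the 6 WN arrays 579. Same-numbered arrays of WA and WN correlated at 0.066 to 0.28 in IMR-32 (SK-N-SH 0.042 to 0.41), with 1 pair of each line under 0.1, so the block was not taken as pairing there or between lines. It called SLC18A1 between WA and WN (0.53, adjusted p = 0.0397 in IMR-32; −0.51, 0.0335 in SK-N-SH) and TH between the lines (0.61, 0.0438).

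Some uncalled values changed sign. SLC18A1 with WA in IMR-32 became 0.080 (series matrix), 0.070 (no normexp) and 0.033 (mean of probes), and with WN 0.059 and 0.051 in the first 2 of these. GCH1 with WN became 0.11 in IMR-32 (mean of probes) and −0.013 in SK-N-SH (array weights). TH with WN in SK-N-SH became −0.00438, −0.00376 and −8.03e-05 (series matrix, no normexp, mean of probes). With 1 array left out the ranges were, with WA in IMR-32, GCH1 −0.52 to 0.035, SLC18A1 −0.20 to 0.024 and SLC6A2 −0.076 to 0.44, and in SK-N-SH GCH1 −0.57 to 0.13 and SLC18A1 −1.003 to 0.29. With WN in IMR-32 they were TH −0.65 to 0.0078, DBH −0.46 to 0.041, GCH1 −0.49 to 0.16 and MAOA −0.10 to 0.061. With WN in SK-N-SH they were TH −0.076 to 0.039, DDC −0.15 to 0.60, DBH −0.60 to 0.37, GCH1 −0.073 to 0.40, SLC18A1 −0.26 to 0.66 and MAOA −0.42 to 0.027. Between WA and WN, GCH1 in IMR-32 ran −0.37 to 0.19 and SLC18A1 in SK-N-SH −1.15 to 0.14, and the line difference of the WA effect on DBH −1.48 to 0.10. Levels near background, as for TH and SLC18A1 in IMR-32, limit what can be measured.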
